A study of Mus musculus with 8 samples.

Results

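This account describes 10 genes whose proteins bind microtubules: the minus-end genes Camsap1, Camsap2 and Camsap3, the lattice-binding genes Map1a, Map1b, Map2, Map4, Map6 and Mapt, and the stathmin gene Stmn2. They are 10 of the 24078 entries in a count table of mouse hippocampus RNA. The set was chosen by symbol, and it was selected on measured values, because the rise of Camsap3 between homozygous and wild-type mice in these libraries led to it. The differences of the 10 genes between genotypes are therefore given as a description, and their calls further on are not used as a test. Only 5 of the 10 stood in the table under their present symbol. The other 5 were found under the older symbols Mtap1a, Mtap1b, Mtap2, Mtap4 and Mtap6. All 10 passed the filter on low counts.

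The study compared hippocampi of 4 wild-type mice (replicates 7 to 10) with those of 4 mice homozygous for a mutation of Wfs1 (replicates 15 to 18), both groups under the strain label Wfs1tm1Koks, and no treatment is named. Wfs1 encodes wolframin, a protein of the endoplasmic reticulum membrane that is lost in Wolfram syndrome. The labels used here give no age, sex, litter or sequencing batch for either group, so these were not tested. Each library is 1 animal's hippocampus, made from total RNA depleted of ribosomal RNA and sequenced on a SOLiD 4 instrument. The library totals ran from 3250949 to 6747411 counts. Levels are given in CPM, the count scaled to the library's total after the low-count filter, times a scaling factor described below. The targeted gene Wfs1 stood at 44.6 to 61.3 CPM in wild-type libraries and 12.03 to 17.7 CPM in homozygous ones. The groups did not overlap (log2 change -1.81, SE 0.16, adjusted p = 2.62e-05 by edgeR (quasi-likelihood, Benjamini-Hochberg)). None of the 8 neuronal or 6 astrocyte markers was at 0 in the table. These mark cell types, and markers of the hippocampus itself were not looked at.

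Microtubules are polar polymers of alpha and beta tubulin with a growing plus end and a minus end. CAMSAP proteins bind free minus ends and protect them from loss, so that microtubules can persist away from the centrosome, as they do in neurites and in epithelial cells. MAP1A, MAP1B, MAP2, MAP4, MAP6 and tau bind along the microtubule wall and stabilise or space it, with MAP2 known from dendrites, tau from axons and MAP4 from many cell types. Stathmin-2 acts the other way: it holds tubulin dimers and promotes disassembly, and is known from growth cones.

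The levels of the 10 genes in each library are given as CPM, scaled between libraries with edgeR's trimmed mean of M-values (TMM). In bulk tissue, fewer cells of a type and less RNA per cell cannot be told apart. With an adjusted p under 0.05 as the limit, 1 of the 10 genes was called higher in homozygous libraries (Camsap3) and 4 were called lower (Map1a, Map1b, Mapt and Stmn2), while 5 were called in neither direction. Over all 20478 genes tested, 20.7% were called higher and 20.4% lower. The groups did not overlap for 5 of the 10 genes, against 37.6% of all genes. Since the contrast itself led to the set, nothing is read from these counts. The median log2 fold change was -0.32 for the 10 genes and 0.05 for all genes tested.

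**Figure D1:**
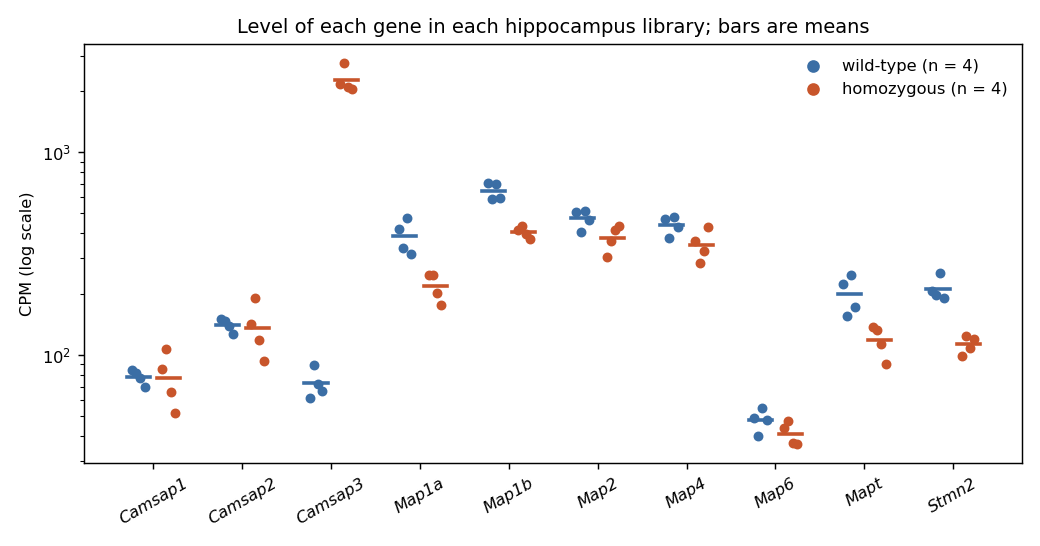
Level of each of the 10 genes in the 8 hippocampus libraries, in CPM on a log axis; points are libraries and bars the group means (n = 4 each). The 4 homozygous values of Camsap3 sit at 2061 CPM or more and its 4 wild-type values at 89.9 CPM or less, while those of Camsap1 and Camsap2 overlap between genotypes.

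Camsap3 was the member with by far the largest difference. Its gene lies on chromosome 8, from 3587293 to 3609075 on the plus strand (mm10), and its protein is known for anchoring minus ends at cell junctions of epithelia. Wild-type replicates 7, 8, 9 and 10 gave 61.5, 89.9, 71.7 and 66.9 CPM, and homozygous replicates 15, 16, 17 and 18 gave 2177, 2758, 2093 and 2061 CPM. The lowest homozygous library was thus far above the highest wild-type library, and replicate 16 stood above the other homozygous libraries. The group means were 72.5 ± 12.3 CPM and 2272 ± 328 CPM (SD, n = 4 each), a ratio of 31.4 and a log2 change of 4.97 (SE 0.21). These values rest on 265 to 447 counts in each wild-type library and 7022 to 12325 in each homozygous library, or 0.00572% to 0.00804% and 0.214% to 0.292% of all counts. By mean CPM the gene moved from rank 3143 in wild-type to rank 7 in homozygous libraries. Its log2 fold change was the 19th largest of all genes tested. It lay between 4.86 and 5.07 when any 1 library was left out.

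Camsap1, on chromosome 2 from 25926838 to 25983282 on the minus strand, encodes a paralog of CAMSAP3. It gave 84.0, 82.1, 76.8 and 69.4 CPM in wild-type replicates 7 to 10 and 85.5, 106.6, 65.6 and 51.7 CPM in homozygous replicates 15 to 18. The wild-type values all lay inside the homozygous range, which was the wider of the pair. The means were 78.1 ± 6.51 and 77.3 ± 23.9 CPM (log2 change -0.01, SE 0.20, and 0.05 to 0.20 with the other 3 scalings described further on).

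Camsap2, on chromosome 1 from 136268123 to 136346104 on the minus strand, encodes the CAMSAP known for its role in axons and dendrites. Wild-type replicates 7 to 10 gave 150.4, 146.5, 139.9 and 127 CPM, and homozygous replicates 15 to 18 gave 141.8, 191, 119 and 93.9 CPM. As for Camsap1, the wild-type values lay inside the homozygous range. The means were 141 ± 10.2 and 136.5 ± 41.5 CPM (log2 change -0.05, SE 0.19, with positive values of 0.16 to 0.32 under the other 3 scalings).

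The paralogs shared their pattern over the libraries. Within each genotype, Camsap1 and Camsap2 put the 4 libraries in the same order, with homozygous replicate 16 highest and 18 lowest. Per kilobase of exon, the ratio of Camsap2 to Camsap1 was 1.62 to 1.67 in wild-type libraries and 1.51 to 1.65 in homozygous ones, ranges that overlap. Both genes had their highest homozygous value in replicate 16, the library in which Camsap3 was also highest.

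The make-up of the CAMSAP transcripts therefore differed between genotypes. On the scale of CPM per kilobase of exon, Camsap3 made up 27.6%, 36.3%, 32.4% and 33.1% of the sum of the 3 CAMSAP genes in wild-type replicates 7 to 10. In homozygous replicates 15 to 18 its share was 93.3%, 93.1%, 94.3% and 95.4%. The mean share was 32.4% ± 3.59 in wild-type libraries and 94.0% ± 1.06 in homozygous ones (SD, n = 4 each). The sum of the 3 genes was 33.0 to 40.4 CPM per kilobase in wild-type libraries and 353 to 484 in homozygous ones. In wild-type libraries, Camsap2 was the leading member, with a mean share of 42.0% ± 2.25, and Camsap1 had 25.6% ± 1.36.

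**Figure D2:**
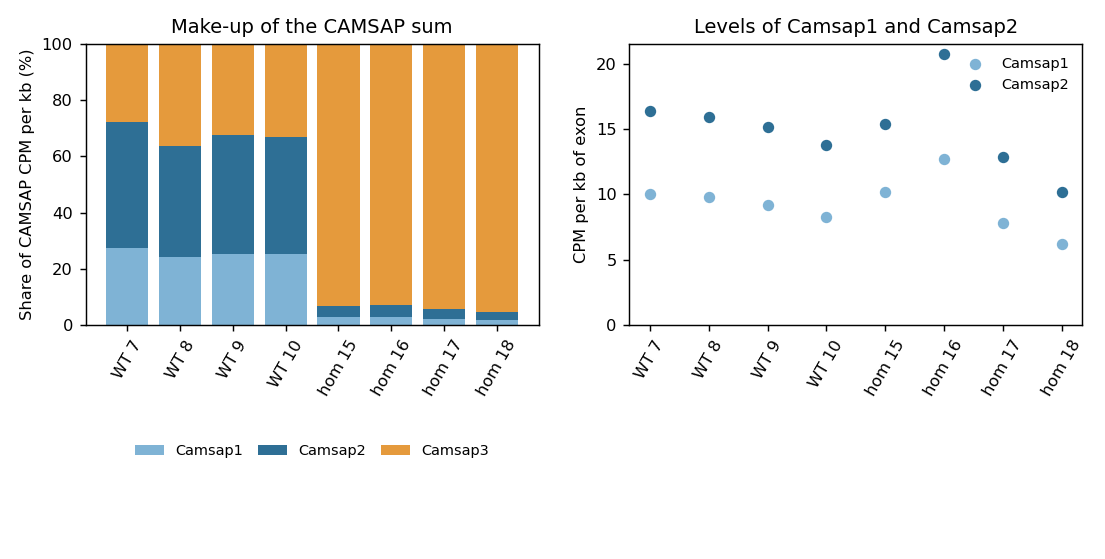
Left, share of each CAMSAP gene in the sum of the 3 genes per kilobase of exon, in percent, for each library; right, CPM per kilobase of exon of Camsap1 and Camsap2 in the same libraries. Camsap3 takes 27.6% to 36.3% in wild-type (WT) and 93.1% to 95.4% in homozygous (hom) libraries, while Camsap1 and Camsap2 follow the same order of libraries within each genotype.

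Shared sequence was searched only as exact matches in annotated transcripts of other genes, so reads aligned with mismatches or elsewhere were not covered. In that search, the transcripts of Camsap3 shared a small part of their sequence with other genes. Of the different 35-base windows in its annotated transcripts, 8.47% also occur in transcripts of another gene, and 505 of these 541 windows occur in Xab2, whose gene overlaps the 3′ end of Camsap3 by 655 bp on the other strand. With 50-base windows the share was 7.48%. None of the 50-base windows occurs in another of the 10 genes. Camsap1 had the highest share of shared windows, 22.04% at 35 bases and 12.95% at 50, largely with the annotated gene Gm19026. Map1a shared 1.99% of its 35-base windows, and for the other 7 genes the share was at most 1.20%. The counting's use of strand and its handling of reads with several matches were not given in the sources used here, so counts in the overlap of Camsap3 with Xab2 cannot be told apart by gene.

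The genes beside Camsap3 did not share its difference in size. Of the 5 protein-coding table genes on each side, 9 could be tested by edgeR (quasi-likelihood, Benjamini-Hochberg): 2 were called higher, 3 lower and 4 neither, and no log2 fold change exceeded 0.95 in size. The nearest upstream gene, C330021F23Rik, ends 2354 bp before Camsap3 and rose from 8.89 ± 0.57 to 15.99 ± 2.27 CPM (log2 change 0.84, SE 0.16, adjusted p = 0.00222 by edgeR). Xab2, a gene of transcription-coupled repair and splicing that overlaps Camsap3, fell from 39.1 ± 5.07 to 26.8 ± 3.07 CPM (log2 change -0.54, SE 0.14, adjusted p = 0.00939 by edgeR, and 0.0825 with library totals only). The part of the stretch shared by Xab2 and Camsap3 in the counts of either gene was not tested.

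Further out, Zfp358, a zinc finger gene, fell from 20.1 ± 1.19 to 12.8 ± 1.36 CPM (log2 change -0.64, SE 0.14, adjusted p = 0.00473 by edgeR). Pnpla6, a phospholipase gene, was called lower (log2 change -0.41, SE 0.13, adjusted p = 0.0276 by edgeR), but the adjusted p was 0.228 with library totals only and 0.0511 to 0.0705 without homozygous 15 or 16 or without wild-type 7, 9 or 10. Retn, the gene of the hormone resistin, was called higher at 0.95 (SE 0.32, adjusted p = 0.0322 by edgeR) although its groups overlapped. Without homozygous replicate 16 its log2 fold change was 0.54 and its adjusted p by edgeR 0.0688, and the adjusted p lay between 0.06 and 0.0917 without wild-type 7, 8 or 9. Tex45, Mcoln1, Pet100 and Stxbp2 were called in neither direction, with log2 fold changes of -0.05, 0.22, 0.50 and -0.13, and Pcp2 did not pass the low-count filter. With library totals only, Tex45 and Stxbp2 were at 0.15 and 0.07, and Mcoln1 and Pet100 passed the limit. Pet100 stood at 0.93 (adjusted p = 0.00788 by edgeR) with the density trend removed. With the abundance trend removed, Pnpla6 (adjusted p = 0.0952 by edgeR) and Retn (adjusted p = 0.0662) missed the limit.

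**Figure D3:**
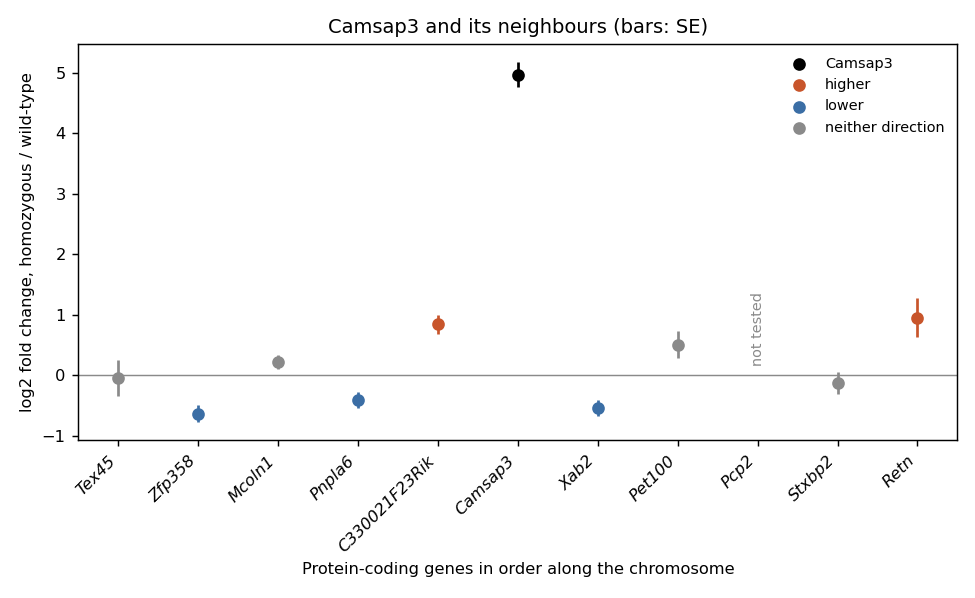
Log2 fold change (homozygous against wild-type, with SE) of Camsap3 and of the 5 protein-coding table genes on each side, in order along the chromosome. Camsap3 sits at 4.97, and the 9 tested neighbours lie between -0.64 and 0.95.

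Of all genes with a mean of at least 1 CPM, the 5 with values nearest to those of Camsap3 were listed. Likeness was measured as the root mean square difference of log2(CPM + 0.5) over the 8 libraries, each gene taken relative to its own wild-type mean. It therefore mainly picks genes with a genotype difference of the same size, the value that led to the set. The nearest were Rest (0.37, a repressor of neuronal genes, 26.3 to 671 CPM), Taf13 (0.39, a subunit of the general transcription factor TFIID, 16.6 to 623 CPM), Srpx2 (0.46, 19.5 to 483 CPM), Ccdc120 (0.48, 19.8 to 715 CPM) and Trpm8 (0.48, a cold-activated channel, 20.3 to 992 CPM), where the CPM values are the means of wild-type and homozygous libraries. Within the homozygous libraries the genes differed: Camsap3 and Srpx2 were highest in replicate 16, Rest in 18, Taf13 in 15, and Ccdc120 and Trpm8 in 17. These values describe 8 libraries only.

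Among the lattice-binding genes, Map1a, Mapt and Map1b had the largest differences, and all were lower in homozygous libraries. Map1a, on chromosome 2 from 121289600 to 121310832 on the plus strand, encodes a MAP of mature neurons and their dendrites. It gave 419.5, 337, 476 and 316 CPM in wild-type replicates 7 to 10 and 248, 247, 203 and 177 CPM in homozygous replicates 15 to 18. All homozygous values lay below all wild-type values. The means were 387 ± 74.3 and 219 ± 35.0 CPM (SD, n = 4 each), a log2 change of -0.82 (SE 0.18).

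Map1b, on chromosome 13 from 99421446 to 99516540 on the minus strand, encodes the MAP1 protein known from growing axons. Wild-type replicates 7 to 10 gave 702, 588, 699 and 595 CPM, and homozygous replicates 15 to 18 gave 414, 435, 398 and 373 CPM. The groups did not overlap, with homozygous libraries below. The means were 646 ± 63.3 and 405 ± 26.4 CPM (log2 change -0.67, SE 0.14, but 0.03 with the abundance trend removed). Per kilobase of exon, the ratio of Map1a to Map1b was 0.69 to 0.89 in wild-type libraries and 0.62 to 0.78 in homozygous ones, which overlap.

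Mapt, on chromosome 11 from 104231390 to 104332090 on the plus strand, encodes tau. It gave 225, 157, 247 and 172 CPM in wild-type replicates 7 to 10 and 138, 134, 113 and 90.1 CPM in homozygous replicates 15 to 18. Every homozygous value was below the lowest wild-type value. The means were 200.4 ± 42.9 and 119 ± 22 CPM, a log2 change of -0.75 (SE 0.18).

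Map2, the dendritic MAP, lies on chromosome 1 from 66175273 to 66442583 on the plus strand. It gave 509, 403.5, 515 and 462 CPM in wild-type replicates 7 to 10 and 303.5, 366, 412 and 432 CPM in homozygous replicates 15 to 18. The groups overlapped, because homozygous 17 and 18 exceeded wild-type 8. The means were 472.5 ± 51.8 and 378.5 ± 57.3 CPM (log2 change -0.32, SE 0.16, but positive, at 0.34 and 0.17, with the abundance or the density trend removed).

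Map4, which encodes a MAP of many cell types including glia, lies on chromosome 9 from 109931460 to 110083955 on the plus strand. Wild-type replicates 7 to 10 gave 468, 379, 477 and 429.0 CPM, and homozygous replicates 15 to 18 gave 364, 285, 327 and 429.1 CPM. The overlap came from homozygous 18, which reached the level of wild-type 10. The means were 438 ± 44.5 and 351 ± 61.2 CPM (log2 change -0.32, SE 0.16, but 0.32 and 0.17 with the abundance or the density trend removed).

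Map2 and Map4 were nearly equal in wild-type libraries once divided by length: the ratio of Map2 to Map4 per kilobase was 0.98 to 1 there. It spread from 0.77 to 1.18 in homozygous libraries. The ratio of Mapt to Map2 was 0.82 to 1.05 in wild-type libraries and 0.46 to 0.99 in homozygous ones, ranges that overlap. With the length of the longest transcript, the ratio of Mapt to Map2 was 0.44 to 0.57 and 0.25 to 0.54, which overlap as well. None of these ratios therefore separated the genotypes.

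Map6, which encodes a protein known for making microtubules resistant to cold, lies on chromosome 7 from 99267447 to 99337137 on the plus strand. It gave 49.1, 40.0, 54.5 and 47.8 CPM in wild-type replicates 7 to 10 and 43.6, 47.3, 36.7 and 36.4 CPM in homozygous replicates 15 to 18. The groups overlapped, as homozygous 15 and 16 exceeded wild-type 8. The means were 47.8 ± 5.99 and 41.0 ± 5.37 CPM (log2 change -0.23, SE 0.14, negative under all 4 scalings).

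Stmn2, the one gene of the set whose protein promotes disassembly, lies on chromosome 3 from 8509360 to 8561606 on the plus strand. It gave 207, 197, 253 and 190.4 CPM in wild-type replicates 7 to 10 and 98.6, 125, 109 and 119.5 CPM in homozygous replicates 15 to 18. The groups lay well apart, with homozygous libraries lower. The means were 212 ± 28.4 and 113 ± 11.7 CPM, a log2 change of -0.91 (SE 0.14), the most negative of the 10 genes.

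On the scale of CPM per kilobase of exon, the order of the wild-type means was Map1b (40.8), Stmn2 (37.8), Map1a (31.8), Map4 (28.9), Map2 (28.7), Mapt (26.6), Camsap2 (15.3), Camsap3 (11.8), Camsap1 (9.32) and Map6 (5.23). From Map1b to Mapt, each gene overlapped the next in its range over the 4 wild-type libraries, whereas Mapt at 20.8 to 32.8 and Camsap2 at 13.8 to 16.4 did not overlap, nor did Camsap1 at 8.30 to 10.0 and Map6 at 4.37 to 5.96. In homozygous libraries Camsap3 came first at 371 ± 53.6 per kilobase, and the next gene was Map1b at 25.6 ± 1.68. Among 20094 genes with a length, Camsap3 moved from percentile 78.7 to 99.6, Stmn2 from 95.3 to 91.5, Map1a from 94.1 to 89.7 and Mapt from 92.4 to 87.5. Map2 stayed at 93.2 and Map4 at 93.3. The order depends on the length used. Per kilobase of the longest transcript in place of all exons, Map2 at 64.5 to 82.3 and Map4 at 62.3 to 78.4 came first in wild-type libraries, above Stmn2 at 55.8 to 74.2 and Map1b at 49.8 to 59.5, and Mapt at 29.8 to 47.1 overlapped Map1a at 26.7 to 40.3. Camsap3 also came first in homozygous libraries on that scale, at 461.5 to 618.

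The lower values of the lattice-binding genes and Stmn2 came with a trend over all genes that depended on level. Ranked by wild-type level, 7 of the 10 genes lay in the highest decile of all genes tested, where the median log2 fold change was -0.54 and 65.8% of genes were called lower against 3.42% higher. Camsap1 and Camsap3 lay in the ninth decile, with a median of -0.29 and 40.6% called lower, and Map6 in the eighth, with a median of -0.15 and 29.3% called lower. Ranking by wild-type level uses the same wild-type libraries as the fold change. The part of this trend in the members' values was not tested.

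Removing such a trend moved the values of most of the 10 genes. With a smooth trend on gene abundance taken out of each library, the log2 fold change was -0.24 for Map1a, 0.03 for Map1b, -0.34 for Mapt and -0.50 for Stmn2. With a trend on counts per kilobase taken out, these were -0.35, -0.11, -0.33 and -0.40. Camsap3 stood at 5.60 and 5.71 in these fits. In these 2 fits Map1a, Map1b and Mapt no longer passed the limit of 0.05, which is given only to show how far the settings move the values that chose the set.

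**Figure D4:**
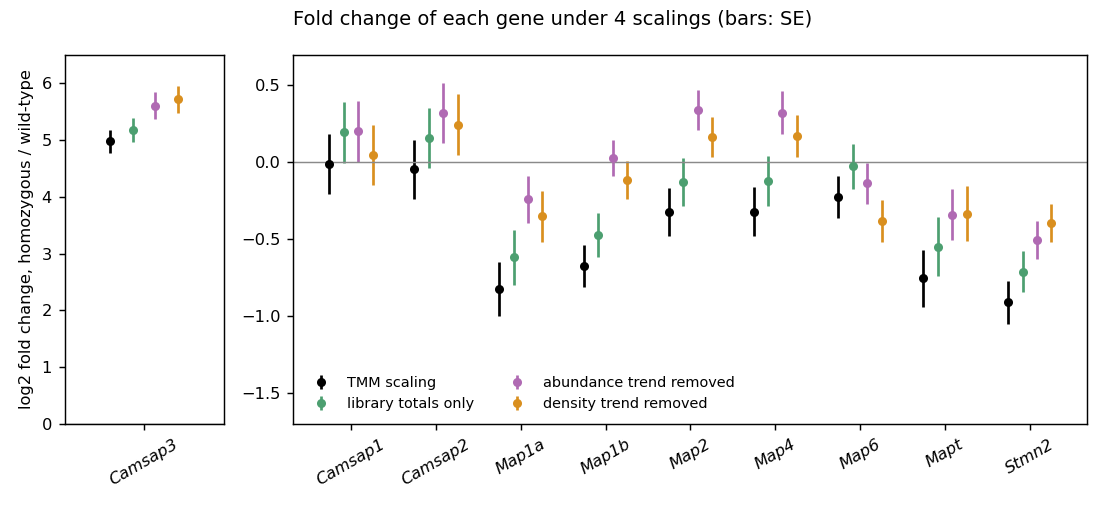
Log2 fold change (homozygous against wild-type, with SE) of each of the 10 genes under 4 scalings; Camsap3 has its own axis at left. Camsap3 lies between 4.97 and 5.71 and Stmn2 between -0.91 and -0.40, while Map1b, Map2, Map4, Camsap1 and Camsap2 lie on both sides of 0.

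Markers of cell types moved in the same libraries. Of 8 neuronal markers, 7 were called lower and 1, Rbfox3, higher, and their summed level was 3431 to 4756 CPM in wild-type libraries and 1822 to 2114 CPM in homozygous ones. Syp weighs heavily in that sum, with means of 1778 CPM in wild-type libraries (1075 to 2715) and 501 CPM in homozygous ones. Over all genes 20.4% were called lower and 20.7% higher. In the highest decile by wild-type level 65.8% were called lower and 3.42% higher, and in the lowest decile 0.586% lower and 30.4% higher. The markers were not matched on level. Of 6 astrocyte markers 3 were called lower (summed level 872.0 to 1108 CPM against 673 to 859 CPM), and of 6 oligodendrocyte markers 5 were called lower (1371 to 2195 CPM against 936 to 1160.2 CPM). Of 6 microglial markers 1 was called lower (177 to 223 CPM against 178.5 to 257 CPM). Of 3 markers of oligodendrocyte precursors, Cspg4 was called higher (log2 change 2.53) and Pdgfra lower, with a summed level of 147 to 235 CPM against 175.5 to 1555 CPM. Both overlapped between genotypes. Cspg4 gave 43.7 to 138.6 CPM in wild-type and 81.0 to 1449 CPM in homozygous libraries, with homozygous 16 highest. Of 5 endothelial markers, Kdr and Cdh5 were called higher and Flt1 lower (119 to 129.9 CPM against 117 to 157 CPM). Among 8 markers of ependymal ciliated cells, 4 were called higher and none lower, with a summed level of 109.7 to 138 CPM against 174.5 to 221 CPM. Of those called, Ccdc153 and Rarres2 overlapped between genotypes. The summed markers of choroid plexus epithelium varied within each genotype, from 209.7 to 1241 CPM in wild-type libraries and from 136 to 891 CPM in homozygous ones. Of these 8, 1 was called higher and 1 lower. Ttr weighs heavily in that sum, with 89.8 to 1018 CPM in wild-type and 18.5 to 723 CPM in homozygous libraries. No marker was listed at 0 in either group's mean. The part of these cell types in the values of the 10 genes was not tested.

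The other genes of the microtubule system were taken from 9 lists compiled by function, with 157 genes of which 155 were tested. By edgeR (quasi-likelihood, Benjamini-Hochberg over all genes), 25 were called higher, 45 lower and 85 neither. These counts, out of 155, are to be read beside the 20.7% and 20.4% of all genes, and the lists were not matched on level. The groups did not overlap for 69 of the 155, against 37.6% of all genes. The median log2 fold change was -0.20, against 0.05 for all genes tested. The count called lower was 23 with library totals only and 26 with either trend removed. The count over all genes moved as well. It was 4168 lower in the main fit, 2412 with library totals only, 3392 with the abundance trend removed and 3077 with the density trend removed.

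Of the tubulins, the building blocks of the polymer, 7 of 15 tested genes fell, none rose and 8 were called in neither direction, with a median of -0.45. With library totals only, or without homozygous 18 or wild-type 8, 1 rose, and with the density trend removed 4 fell and 1 rose. Relative to the median of all genes, the tubulin median was negative under all 4 scalings, from -0.24 with the density trend removed to -0.51 with library totals only. The neuronal beta tubulin Tubb3 fell from 173 to 70.5 CPM (log2 change -1.30, SE 0.17). Tubb4b fell from 160.5 to 77.2 CPM (-1.06, SE 0.13), and the alpha tubulins Tuba1a and Tuba1b fell by 1.07 (SE 0.15) and 1.09 (SE 0.15) on the log2 scale. The largest adjusted p of these 4 was 0.00039 by edgeR. Tubb2a, the most abundant listed tubulin with 230.1 CPM in wild-type, was at -0.36 with an adjusted p of 0.165 by edgeR, and at 0.54 (adjusted p = 0.0215) with the density trend removed, which calls it higher.

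The other stathmins had values on the same side as Stmn2. Stmn3 fell from 239.6 to 139 CPM (log2 change -0.79, SE 0.14, adjusted p = 0.00163 by edgeR), but stood at 0.12 with the density trend removed. Stmn4 was at -0.51 (adjusted p = 0.0939 by edgeR), and without wild-type replicate 8, its lowest wild-type library, at -0.72 (adjusted p = 0.00786). Of the 3 tested, 1 was called lower, and 2 with limma-voom, without wild-type 8 or without homozygous 17 or 18, but none with either trend removed.

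The folding cofactors, which assemble tubulin dimers, gave 3 of 6 genes lower and none higher, with a median of -0.38, though only 1 lower with library totals only or without wild-type replicate 9. Tbca, which captures beta tubulin, fell from 26.7 to 8.87 CPM (log2 change -1.60, SE 0.22, adjusted p = 0.000404 by edgeR). Of the kinases and phosphatases that act on MAPs, 9 of 19 fell and none rose (median -0.43), but 4 fell and 1 rose with the abundance trend removed and 2 fell with the density trend removed. The activators of CDK5, a kinase of tau, were among them: Cdk5r1 fell from 282 to 156 CPM (-0.86) and Cdk5r2 from 75.8 to 37.1 CPM (-1.03), with a larger adjusted p of 0.000661 by edgeR. Ppp3ca, the catalytic subunit of calcineurin, fell from 828 to 511 CPM (log2 change -0.70, adjusted p = 0.00703 by edgeR), but was at 0.06 and 0.07 with the abundance or the density trend removed.

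Lattice-binding genes outside the set went both ways, with 4 of 25 higher, 7 lower and a median of -0.16. The split depended on the scaling: 8 higher and 1 lower with library totals only, 6 and 2 with the abundance trend removed, 5 and 4 with the density trend removed, and 11 lower with limma-voom. It also depended on single libraries, since 4 were lower without wild-type 7 or without wild-type 9. Map7d3, a gene of the family that recruits kinesin-1, rose from 6.52 to 14.2 CPM (log2 change 1.11, adjusted p = 0.00152 by edgeR). Mtus1 rose from 47.3 to 83.3 CPM (0.81, adjusted p = 0.000978 by edgeR). Eml3 rose from 15.7 to 25.65 CPM (0.705, adjusted p = 0.00223 by edgeR). Tppp, the tubulin polymerisation-promoting protein of oligodendrocytes, fell from 579 to 340.0 CPM (-0.77, adjusted p = 0.00222 by edgeR), but was at 0.05 with the density trend removed.

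Plus-end genes gave 5 of 25 higher and 10 lower (median -0.16). The counts were 5 and 5 with library totals only, 7 and 5 with the abundance trend removed, and 4 and 5 with the density trend removed, and 6 were lower without wild-type 9. Clip2 and Clip1, linkers of growing ends, fell by 0.85 and 0.56 on the log2 scale, and the navigator genes Nav1 and Nav2 rose by 0.66 and 0.54 (largest adjusted p of the 4 = 0.00431 by edgeR). The count higher was 3 without wild-type 7 or without wild-type 10. Pafah1b1, the dynein regulator LIS1, was at 0.23 (adjusted p = 0.349 by edgeR), and at 0.995 (adjusted p = 0.00292) with the abundance trend removed.

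The minus-end and nucleation genes share their end of the microtubule with the CAMSAPs. Of 28 tested, 7 were higher and 4 lower, with a median of -0.02, 9 were higher and 1 lower with library totals only, and 4 were higher and 5 lower with the density trend removed. Tubgcp6, a subunit of the gamma-tubulin ring complex, rose from 31.8 to 51.0 CPM (log2 change 0.68, adjusted p = 0.00197 by edgeR). Mzt2, of the same list, fell from 13.8 to 7.4 CPM (log2 change -0.89, SE 0.22, adjusted p = 0.00768 by edgeR). Pcnt, the centrosome scaffold pericentrin, had 72.1 ± 5.79 CPM in wild-type libraries and 566 ± 688 CPM in homozygous ones (log2 change 2.97, SE 0.66, adjusted p = 0.00483 by edgeR). Most of that mean came from homozygous 18 at 1591 CPM, and without it the log2 fold change was 1.63 (adjusted p = 0.00123 by edgeR). No listed minus-end gene reached the fold change of Camsap3.

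Severing enzymes cut microtubules and create new ends. Of 9 tested, 1 was higher and 1 lower, with 2 lower without homozygous 18, and 2 higher with library totals only. Fign, the gene of fidgetin, rose from 56.4 to 134 CPM (log2 change 1.25, SE 0.16, adjusted p = 0.00028 by edgeR). Katnal1, a katanin catalytic subunit, fell from 224 to 102 CPM (-1.13, SE 0.19, adjusted p = 0.000967 by edgeR).

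Enzymes that modify tubulin gave 8 of 25 higher and 3 lower, with a median of 0.07, close to that of all genes. Ttll3, a glycylase known from cilia, rose from 26.0 to 177.5 CPM (log2 change 2.76, SE 0.28, adjusted p = 5.54e-05 by edgeR). Agbl2, a carboxypeptidase that trims glutamates, rose from 11.6 to 58.0 CPM (2.32, adjusted p = 0.000564 by edgeR, with 1.78 without homozygous 16), and Vash2, of the enzymes that remove the terminal tyrosine, rose by 0.97 (adjusted p = 0.000541 by edgeR). The count higher fell to 5 without homozygous 18, without wild-type 7, 9 or 10, or with the density trend removed, and the count lower fell to 1 with library totals only or with the abundance trend removed. Agtpbp1, a deglutamylase whose loss is known to damage neurons, fell by 0.69 on the log2 scale (adjusted p = 0.00357 by edgeR, and 0.0536 with the abundance trend removed).

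**Figure D5:**
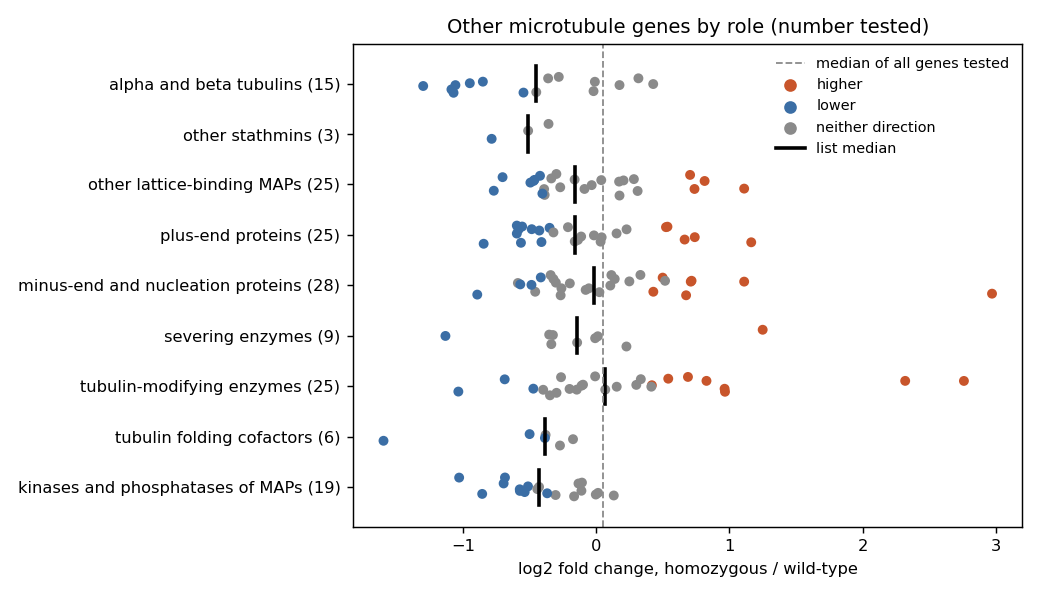
Log2 fold change (homozygous against wild-type) of the tested genes in 9 lists of other microtubule genes; points are genes coloured by their call, black lines the list medians and the dashed line the median of all genes tested (0.05). The medians of tubulins, stathmins, folding cofactors and kinases lie at -0.38 or lower, and single genes such as Pcnt at 2.97 and Ttll3 at 2.76 stand far to the right.

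Among genes that overlap a member, Ppip5k1, an inositol pyrophosphate kinase gene, shares 272 bp with Map1a. It fell from 101.7 to 69.7 CPM (log2 change -0.55, SE 0.12, adjusted p = 0.00371 by edgeR), the same side as Map1a. Plekha7, a junction protein gene known as a partner of CAMSAP3 in epithelia, is one of the 7 genes called higher in the minus-end list, and it was singled out for description after its values were seen. Wild-type replicates 7 to 10 gave 29.1, 37.3, 32.3 and 26.1 CPM and homozygous replicates 15 to 18 gave 51.4, 41.2, 46.3 and 130.3 CPM, so the groups did not overlap and homozygous 18 stood above the others. It was called higher (log2 change 1.11, SE 0.33, adjusted p = 0.0187 by edgeR), which is a description only for a gene singled out in this way. Its value was 0.57 (adjusted p = 0.0136) without homozygous 18, and its adjusted p was 0.0535 without wild-type 10 and 0.0503 with the density trend removed.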

How the data were processed

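Hippocampus RNA of 4 wild-type and 4 homozygous mice was rRNA-depleted and sequenced on SOLiD 4 with paired 50 and 35 bp reads, per the labels' protocols. What the authors deposited is a single table of raw counts with a row per gene symbol and a column per library. The submitters' processing notes name mm10, while aligner, counter, use of strand and annotation were not given in the sources used here. No column belonged to an unlisted sample (0 columns). The 10 genes and all lists were chosen with earlier results of these data known. Symbols were matched to RefSeq gene names and to GENCODE M21 (mm10) for positions and exon lengths: 20775 by current and 1882 by older symbol, with 1421 unmatched.

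Counts were filtered with filterByExpr (3600 entries removed, 20478 tested), scaled by TMM and compared between genotypes with the quasi-likelihood test of edgeR 4.0.16 in R 4.3.3 over all genes, with Benjamini-Hochberg adjustment and a limit of 0.05. The p-values measure the spread between 4 animals per genotype. Windows of 35 and 50 bases of the members' transcripts were searched in the transcripts of all other genes on both strands. The fit was tested on simulated data in which few genes changed, up or down alike, with no trend on level. That test cannot speak to the trend on level or to the choice of scaling. Alternatives were size factors of the DESeq2 type, library totals only, other count filters, leaving out Rn45s and Lars2, a robust fit, DESeq2 1.42.0, limma-voom (limma 3.58.1), 1 surrogate variable (sva 3.50.0), removal of a loess trend (span 0.3) on abundance or on counts per kilobase, a limit of 0.1 for counts, and leaving out each library.

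Named genes are the 10 members, the 5 protein-coding table genes on each side of Camsap3, genes overlapping a member, up to 4 called genes per list without overlap between genotypes by smallest p, the 2 of highest mean CPM per list, the 5 genes most like Camsap3, and Wfs1. Not every list gene that met this rule is named in the text. Plekha7 was added after its values were seen.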

Additional observations from a re-analysis of the deposited data

Results flagged for a closer look

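In 6 of 124 groups of 4 libraries tested (62 genes in each genotype), 1 library stood apart from the other 3 by Dixon's criterion, and chance flags about 1 in 20 groups. For Camsap3, homozygous 16 gave 2758.3 CPM and the other homozygous libraries 2061.1 to 2177 CPM. For Agbl2, homozygous 16 gave 112.4 CPM against 36.1 to 41.9 CPM. For Stxbp2, a neighbour of Camsap3, homozygous 16 gave 12.2 CPM against 10.86 to 10.99 CPM. For Pcnt, homozygous 18 gave 1591.2 CPM against 117.6 to 289.7 CPM. For Plekha7, homozygous 18 gave 130.3 CPM against 41.2 to 51.4 CPM. For Stmn4, wild-type 8 gave 41.7 CPM against 81.0 to 88.6 CPM. The 2 homozygous libraries involved are 16 and 18.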

How the results depend on the processing

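Over all the alternatives run, 2 of the 9 tested neighbours kept both their sign and their side of the limit. The same held for 25 of the 40 list genes that met the naming rule. The 10 members are kept apart from this tally: Camsap3 and Stmn2 passed the limit in 19 of 19 alternatives and Map6 in 0. For the members this only describes how far the settings move the values, since the contrast led to the set. With library totals only, which shifts the median of all genes from 0.05 to 0.25, 6645 genes were called higher and 2412 lower, against 4241 and 4168 with TMM, so that 73.4% of calls were higher in place of 50.4%. Of the listed microtubule genes, 45 were called lower, but 23 with library totals only, 26 with the abundance trend removed and 26 with the density trend removed. Of all genes, 3392 were called lower with the abundance trend removed and 3077 with the density trend removed. Of the 10 members, 4 were called lower, but 1 with either trend removed. Camsap3 stood at 5.60 and 5.71 with the abundance and the density trend removed, and its wild-type share of the CAMSAP sum was 36.8% with the length of the longest transcript. With library totals only, values of the other sign were 0.20 for Camsap1, 0.16 for Camsap2, 0.15 for Tex45, 0.073 for Stxbp2 and 0.001 for Kansl1. With the abundance trend removed, they were 0.20 for Camsap1, 0.32 for Camsap2, 0.34 for Map2, 0.32 for Map4, 0.03 for Map1b, 0.13 for Tubb2a, 0.36 for Dclk1, 0.36 for Macf1, 0.16 for Kansl1 and 0.064 for Ppp3ca. With the density trend removed, they were 0.047 for Camsap1, 0.24 for Camsap2, 0.17 for Map2, 0.17 for Map4, 0.54 for Tubb2a, 0.12 for Stmn3, 0.051 for Stmn4, 0.051 for Tppp, 0.23 for Dclk1, 0.19 for Kansl1 and 0.065 for Ppp3ca. With a limit of 0.1, 5332 genes were higher and 5050 lower, and 60 listed genes were lower. Leaving out 1 library gave -0.21 to 0.13 for Camsap1, -0.26 to 0.089 for Camsap2, -0.29 to 0.14 for Tex45 and -0.22 to 0.001 for Stxbp2, 3178 to 3995 genes higher and 3311 to 4253 lower. The cause was not tested. No paired analysis was possible because the genotypes share no replicate number. With 3250949 to 6747411 counts per library, 3600 entries were too low to test, among them Pcp2.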
